A study of Mus musculus with 20 samples.

Results

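The genes described here are 50 genes of mitosis, the division of the nucleus and the cell that follows DNA replication. They were chosen by name, as cyclins and kinases that start mitosis, regulators of its transcription, and proteins of the spindle, the kinetochore, the cleavage machinery and the condensed chromosome. All 50 were found by symbol among the 21963 entries of the count table, and all 50 passed the filter on low counts that left 11707 genes tested. They were measured by RNA-seq in 20 libraries of bone marrow-derived macrophages (BMDMs), cells grown from mouse bone marrow for 7 days in medium conditioned by L929 cells and used on days 9 to 14.

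The mice were 15 to 25 weeks old. The 5 groups were WT untreated (n = 4), WT with zymosan (n = 5), WT loaded with BAPTA-AM and given zymosan (n = 4), Mcu-/- untreated (n = 4) and Mcu-/- with zymosan (n = 3). Zymosan, a yeast cell wall preparation that engages TLR2 and dectin-1, was given for 3 h, and BAPTA-AM is a cell-permeable Ca2+ chelator, used at 10 µM. Mcu encodes the pore of the mitochondrial Ca2+ uniporter, and the Mcu-/- macrophages came from Mcu fl mice in which Cx3cr1-cre drives the deletion, so Mcu was lost from cells that had expressed Cx3cr1. The labels call the libraries biological replicates without naming the animals, so the p-values measure the spread between these libraries.

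Library totals ran from 14420400 to 23954600 counts. Levels are given as CPM, a gene's counts scaled to a common library size after TMM scaling, and a gene was called higher or lower where edgeR's quasi-likelihood test gave an adjusted p under 0.05 over all genes tested. The SE given with a log2 fold change was derived from that test, as its absolute value divided by the square root of the F statistic. It is therefore approximate and may be too small where counts are low. Mcu was at 6.1 to 9.55 CPM in the 13 WT libraries and at 2.63 to 4.05 CPM in the 7 Mcu-/- libraries. Library 4 of the untreated Mcu-/- group stood apart from the other 3 of its group, with a mean correlation with them of 0.946 over all tested genes. Its mean correlation with the WT untreated libraries was also 0.946, against 0.993 for each of those 3. Its Mcu level was that of the Mcu-/- group, at 4.05 CPM. The libraries of this group are therefore given as 1 to 3 and, apart from them, library 4, and the fit gave library 4 a coefficient of its own.

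Mitosis begins when cyclin B binds and activates the kinase CDK1, after which chromosomes condense, the spindle captures them at their kinetochores, and the anaphase-promoting complex triggers their separation once the spindle checkpoint is satisfied. The genes for these proteins are transcribed together late in the cell cycle. Their promoters are bound by the MuvB complex, which recruits RB-family proteins and E2F4 as a repressor (DREAM) in resting cells and B-MYB and FOXM1 as activators in cycling cells, through a DNA element called the cell cycle genes homology region (CHR). BMDMs in M-CSF contain proliferating cells, and inflammatory stimulation of macrophages is known to slow their cycle.

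The 50 genes had similar levels in the untreated WT libraries and in Mcu-/- libraries 1 to 3. Most of them were lower in WT with zymosan, with or without BAPTA-AM. All 50 were lower in Mcu-/- with zymosan than in WT with zymosan, most of them several-fold. Their summed level was 1610 to 1690 CPM in WT untreated and 1790 to 1860 CPM in Mcu-/- untreated 1 to 3. It was 1090 to 1220 CPM in WT with zymosan, 1130 to 1220 CPM with BAPTA-AM and 199 to 219 CPM in Mcu-/- with zymosan. The untreated Mcu-/- library 4, which received no zymosan, had 249 CPM, close to the Mcu-/- libraries with zymosan and far below all 16 others. In bulk RNA, fewer dividing cells and less mitotic RNA per dividing cell cannot be told apart.

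**Figure D1:**
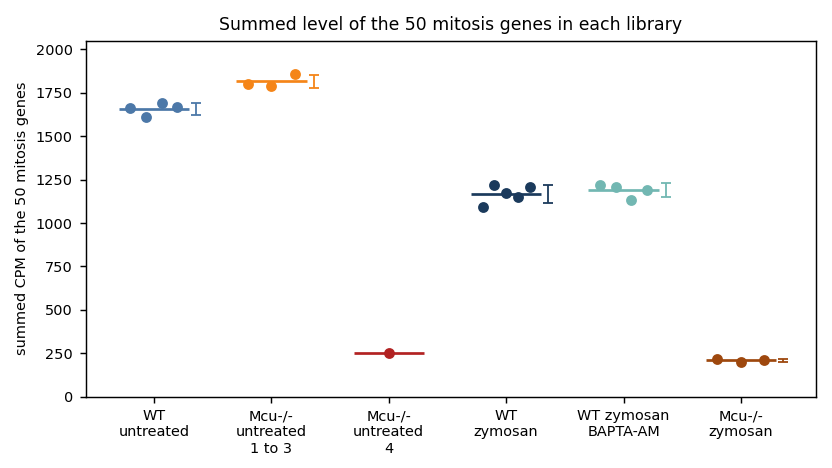
Summed CPM of the 50 mitosis genes (linear axis from 0), with 1 point per library, a line at the group mean and bars of 1 SD; the 6 columns are the 5 groups with untreated Mcu-/- library 4 apart. The untreated WT libraries lie between 1610 and 1690, and library 4 (249) lies near the 3 Mcu-/- zymosan libraries (199 to 219).

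Compared per kilobase of exon, the levels in WT untreated ran from 22.8 CPM per kb for Cks2, a small subunit that binds CDK1, through 21.9 for Ccnb2 (cyclin B2) and 20.9 for Smc4 (a condensin core subunit), to 1.37 for Aspm (a spindle pole protein) and 0.742 for Cdc25c, a phosphatase that activates CDK1. Replicates were tight: the median coefficient of variation over the 50 genes was 5.3% in WT untreated, 3.95% in Mcu-/- untreated 1 to 3, 6.89% in WT with zymosan and 7.13% with BAPTA-AM. It was 18.8% in Mcu-/- with zymosan, where counts were lowest, against 5.44% over all tested genes in that group. Aspm, the lowest there, had 1 to 6 counts per library.

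Sequence features that the choice of genes did not use were read from the promoter windows of RefSeq (GRCm38.p6), from 250 bases before to 50 bases after each gene's start. A window was at hand for 42 of the 50 genes, 44 windows in all, since Ect2 and Prc1 each had a pair of overlapping windows. The CHR (TTTGAA or TTCGAA on either strand) was present in 35 of the 44 windows (79.5%) and in 19.2% of all 32851 windows. CCAAT boxes (CCAAT on either strand), the sites of the factor NF-Y, were in 75% against 37.4%, and both motifs together in 68.2% against 7.5%. An E2F motif (TTTGGCGC, TTTCGCGC, TTTCCCGC or TTTGGCGG on either strand) was in 9.1% against 2.4%. Matches of different motifs were counted separately also where their letters overlapped. For comparison, of 46 DNA replication and G1/S genes, 38 had a window (44 windows), of which 20.5% held the CHR and 38.6% the E2F motif. Of the 33 mitosis genes with a CHR, 30 had it within 50 bases of the start.

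The promoters of the genes at the ends of the range of change below are shown 5′ to 3′ on the strand of the gene, up to the base before its start, with CHR and CCAAT letters in capitals. Ccnb2, Ckap2l and Cenpf are the 3 genes with the largest difference between Mcu-/- and WT with zymosan, and Cks2 and Smc2 are among the 3 with the smallest. Cdk1 and Top2a are shown as genes with several CHR matches, and Ube2c for its single CHR just before the start. Ccnb1 is shown as a cyclin whose window held neither TTTGAA nor TTCGAA on either strand.
Ccnb2, chr9:70421555-70421654, minus strand: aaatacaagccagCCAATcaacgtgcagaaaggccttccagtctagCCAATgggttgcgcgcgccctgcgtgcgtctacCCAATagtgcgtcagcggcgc
Ckap2l, chr2:129297213-129297342, minus strand: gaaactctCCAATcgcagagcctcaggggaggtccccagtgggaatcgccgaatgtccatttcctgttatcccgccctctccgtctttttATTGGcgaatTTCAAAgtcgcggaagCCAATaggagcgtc
Cenpf, chr1:189688087-189688166, minus strand: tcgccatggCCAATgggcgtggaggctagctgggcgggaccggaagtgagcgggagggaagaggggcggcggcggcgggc
Cdk1, chr10:69352913-69353002, minus strand: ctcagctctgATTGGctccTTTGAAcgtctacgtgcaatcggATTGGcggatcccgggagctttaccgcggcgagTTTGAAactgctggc
Top2a, chr11:99024190-99024379, minus strand: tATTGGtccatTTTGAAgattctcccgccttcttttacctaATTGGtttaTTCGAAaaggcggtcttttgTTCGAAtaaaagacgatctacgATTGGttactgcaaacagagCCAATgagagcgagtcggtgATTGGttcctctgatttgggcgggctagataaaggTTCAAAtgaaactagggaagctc
Ube2c, chr2:164769829-164769928, plus strand: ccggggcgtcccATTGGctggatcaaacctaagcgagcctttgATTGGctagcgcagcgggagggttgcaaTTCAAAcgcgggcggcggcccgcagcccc
Cks2, chr13:51645152-51645231, plus strand: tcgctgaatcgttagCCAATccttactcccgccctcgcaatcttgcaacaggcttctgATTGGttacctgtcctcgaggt
Smc2, chr4:52439061-52439220, plus strand: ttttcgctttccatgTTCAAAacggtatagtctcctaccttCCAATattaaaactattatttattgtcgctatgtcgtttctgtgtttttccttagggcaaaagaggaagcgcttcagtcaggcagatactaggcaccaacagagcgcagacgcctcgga
Ccnb1, chr13:100786487-100786596, minus strand: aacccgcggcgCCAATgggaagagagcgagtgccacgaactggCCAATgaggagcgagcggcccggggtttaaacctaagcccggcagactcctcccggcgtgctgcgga
In Ccnb2 and Cenpf the CHR lay just after the start, within the first 20 transcribed bases.
Ccnb2, chr9:70421535-70421554, minus strand: ggtaTTTGAAtcgcggaccg
Cenpf, chr1:189688067-189688086, minus strand: agTTTGAAtcgctcgtgctg

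The 3 CCAAT boxes of Ccnb2 began 87, 54 and 21 bases before its start, and its nearest CHR began at base 5 of the transcript. Cdk1 had CHR matches 71 and 15 bases before its start, and Top2a had 4 in its window, the nearest 23 bases before the start. Genes with and without a CHR in the window overlapped in their change between Mcu-/- and WT with zymosan: the log2 fold change ran from −4.44 to −1.55 with a median of −2.89 in the 33 with it, and from −4.27 to −1.24 with a median of −2.43 in the 9 without it. Only TTTGAA and TTCGAA were searched as the CHR, so genes counted as without it may hold another form of the element. A match is a description of letters in the window, and no binding was measured.

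Zymosan lowered most of the 50 genes in WT macrophages within 3 h. Of the 50, 45 were lower and 2 higher, while over all genes tested 41.2% were called lower and 37.1% higher. The median log2 fold change was −0.57 (1.49-fold), against −0.04 over all genes, with quartiles of −1.11 and −0.36, and 14 genes fell by more than 2-fold. All 6 cyclin and CDK1 genes, 6 kinetochore genes and 8 genes of the passenger complex, midzone and cytokinesis were lower, with medians of −0.55, −0.70 and −0.91, as were both transcription genes (−0.69) and all 5 checkpoint and anaphase genes (−0.47). Of the other roles, 5 of 6 mitotic kinases (median −1.14), 5 of 6 genes of chromosome structure (−0.35) and 8 of 11 spindle genes (−0.56) were lower, with 2 spindle genes higher.

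The 3 genes with the largest falls were Aspm, Kif20b and Anln. Aspm was at 14.6, 16.6, 16.1 and 16 CPM untreated and at 2.68, 3.67, 2.91, 3.72 and 3.55 CPM with zymosan, a change of −2.26 ± 0.11 (SE) on the log2 scale (edgeR adjusted p = 4.51e-21). All 5 zymosan libraries were below all 4 untreated ones. Kif20b, a midzone kinesin, fell by 1.86 on the log2 scale (SE 0.087), and Anln (anillin, a scaffold of the contractile ring) by 1.70 (SE 0.072).

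The kinase Plk1, which acts from mitotic entry to cytokinesis, was at 24.5, 22.4, 22.3 and 19.9 CPM untreated and at 6.66, 8.32, 7.09, 6.74 and 6.32 CPM with zymosan. On the log2 scale it changed by −1.67 ± 0.075 (SE) (edgeR adjusted p = 3.74e-22), and the groups did not overlap. Aurka (Aurora A, the spindle pole kinase) fell as much, by 1.67 (SE 0.070), while Aurkb (Aurora B, of the chromosomal passenger complex) fell by 0.80 (SE 0.064). Kif23, a component of the centralspindlin complex at the midzone, fell by 1.58 and Kif20a, its fellow midzone kinesin, by 1.25.

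Cdk1, the kinase that drives entry into mitosis, was at 60.4, 55.7, 59.3 and 60.6 CPM untreated and at 42.0, 45.1, 45.1, 50.7 and 46.3 CPM with zymosan, and fell by 0.36 (SE 0.044, edgeR adjusted p = 1.37e-09). Its partners Ccnb1 and Ccna2 fell by 0.58 and 0.89. Foxm1, an activator of these genes, fell from 18.9 to 23.7 CPM untreated to 9.69 to 11.3 CPM, a change of −0.997 on the log2 scale (SE 0.070). Cdc20, which activates the anaphase-promoting complex, fell by 0.97, and Bub1, a checkpoint kinase, by 0.47. Ube2c, the ubiquitin-conjugating enzyme of that complex, fell by 0.19.

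Some members departed from this. Kif4, a chromosome-binding kinesin, rose: it was at 18.4, 17.5, 18.1 and 16.3 CPM untreated and at 23.6, 25, 21.7, 23.9 and 26.1 CPM with zymosan, a change of 0.45 ± 0.061 (SE) on the log2 scale (edgeR adjusted p = 2.06e-08). Nusap1, which bundles spindle microtubules, rose by 0.12 (SE 0.054, adjusted p = 0.0404). Ccnb2 fell by only 0.11 (SE 0.047, adjusted p = 0.0268), to 28.5 to 32.4 CPM from 32.6 to 34.2 CPM. Mki67, the proliferation marker that coats mitotic chromosomes, had a log2 fold change of 0.01 (SE 0.049, adjusted p = 0.823), Ckap2l of 0.13 (adjusted p = 0.0676) and Melk of −0.15 (adjusted p = 0.0836), none of them called. The scaling bears on these: with library totals in place of TMM factors the median of all genes moved from −0.04 to −0.53, and Kif4 (−0.04), Nusap1 (−0.37), Ckap2l (−0.36) and Mki67 (−0.48) were then below 0, though above that median, with 0 of the 50 genes called higher and 49 lower. With library 4 kept in its labelled group, where the spread over all libraries is larger, 20 were called lower and 0 higher.

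**Figure D2:**
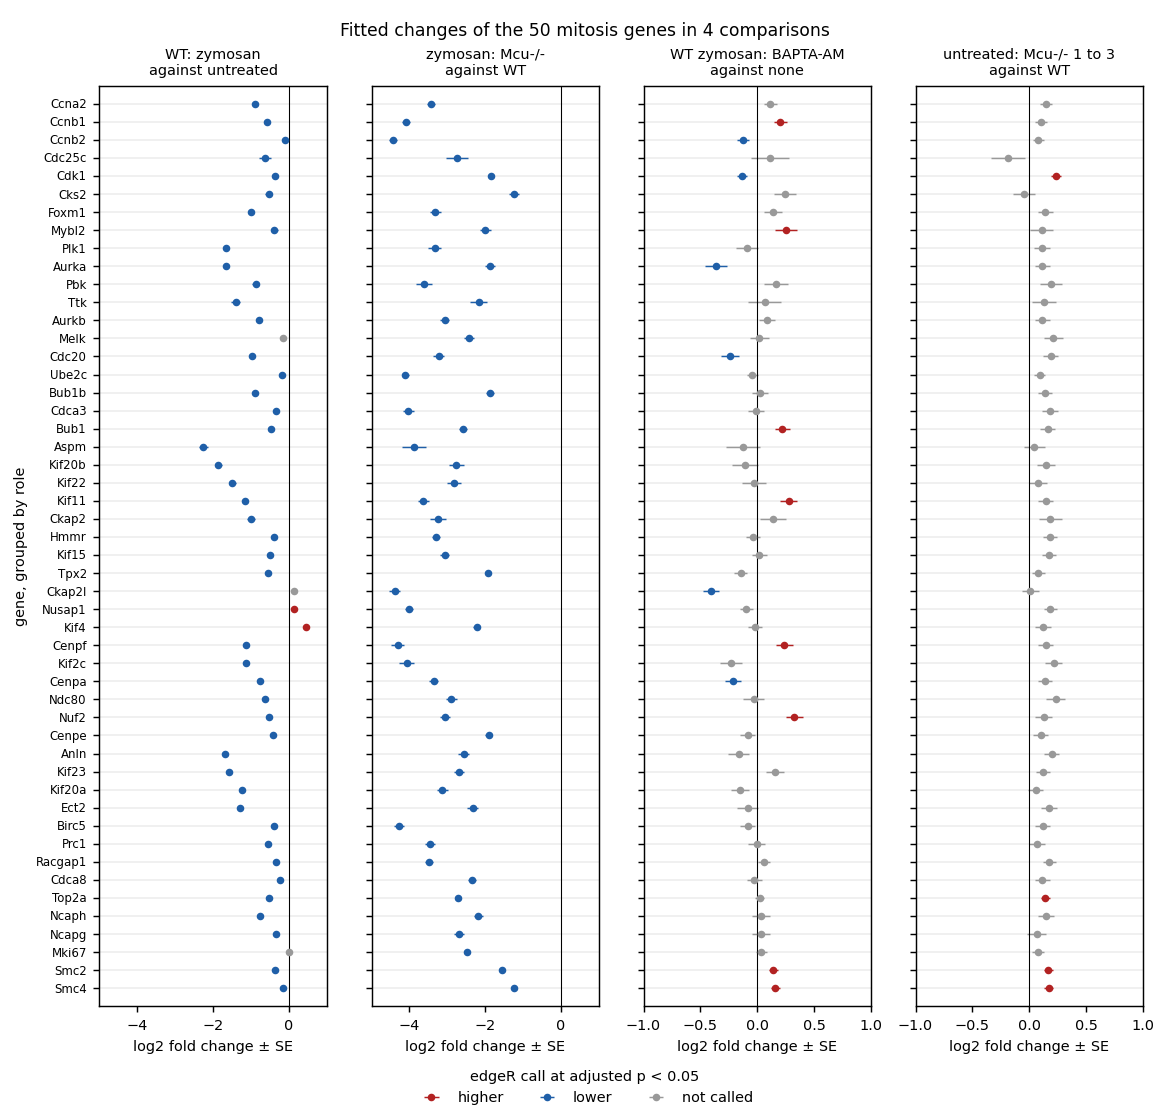
Fitted log2 fold change of each of the 50 genes with its SE in 4 comparisons (the 2 right panels have a narrower axis), with calls of edgeR at adjusted p under 0.05 in colour. All 50 points are blue in the comparison of Mcu-/- with WT under zymosan (−4.44 to −1.23), 45 are blue for zymosan in WT, and the points of the 2 other panels lie close to 0.

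With zymosan, all 50 genes were lower in Mcu-/- than in WT macrophages, 41 of them by more than 4-fold, with every Mcu-/- library below every WT library for each gene, as for 30.9% of all genes tested. Over all genes tested, 33.7% were called lower and 36.4% higher. The median log2 fold change of the 50 was −2.98 (7.88-fold) against 0.02 over all genes, and it ran from −4.44 for Ccnb2 to −1.23 for Smc4. By role, the median was between −3.25 (11 spindle genes) and −2.33 (6 genes of chromosome structure).

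Ccnb2 was at 29.5, 32.1, 28.5, 32.4 and 32.4 CPM in WT and at 1.3, 1.36 and 1.59 CPM in Mcu-/- macrophages, a change of −4.44 ± 0.10 (SE) on the log2 scale (edgeR adjusted p = 1.12e-31). Every Mcu-/- library with zymosan was below every WT library. This is the cyclin that zymosan barely moved in WT, whose promoter with 3 CCAAT boxes is printed above.

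Next in size were Ckap2l, a spindle protein, at −4.39 (SE 0.14), Cenpf, a kinetochore and corona protein, at −4.30 (SE 0.17), Birc5 (survivin, of the chromosomal passenger complex) at −4.27 (SE 0.14) and Ube2c at −4.11 (SE 0.089). Ube2c was at 41.1, 42.1, 39.9, 40.1 and 42.0 CPM in WT and at 2.47, 2.03 and 2.59 CPM in Mcu-/-. Ccnb1 fell by 4.08 (SE 0.11) and Nusap1, higher with zymosan in WT, by 4.00 (SE 0.11).

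Cdk1 itself was less reduced than its cyclins, at 12.8, 11.8 and 13.2 CPM in Mcu-/- against 42.0 to 50.7 CPM in WT, a change of −1.86 ± 0.063 (SE) on the log2 scale (edgeR adjusted p = 9.03e-26). Top2a (DNA topoisomerase II alpha) was at 15.6, 16 and 16.8 CPM against 98.9 to 110 CPM (−2.71, SE 0.057). Mki67 was at 32.7, 22.3 and 28.9 CPM against 141 to 166 CPM (−2.47, SE 0.068). Plk1, with 0.706, 0.678 and 0.696 CPM, was at 12 to 14 counts per library in Mcu-/- (−3.33, SE 0.17).

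The smallest differences were in Smc4 and Smc2, the core of condensin, and Cks2. Smc4 was at 44.6, 36.9 and 43.3 CPM in Mcu-/- and at 94.4, 98.4, 96.8, 95.5 and 104 CPM in WT (−1.23, SE 0.050). Cks2 differed by −1.24 (SE 0.13) and Smc2 by −1.55 (SE 0.052). Ncapg and Ncaph, the subunits specific to condensin I, were lower by 2.69 and 2.18. The transcription factors Foxm1 and Mybl2 (B-MYB) were lower by 3.31 (SE 0.15) and 1.99 (SE 0.15).

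**Figure D3:**
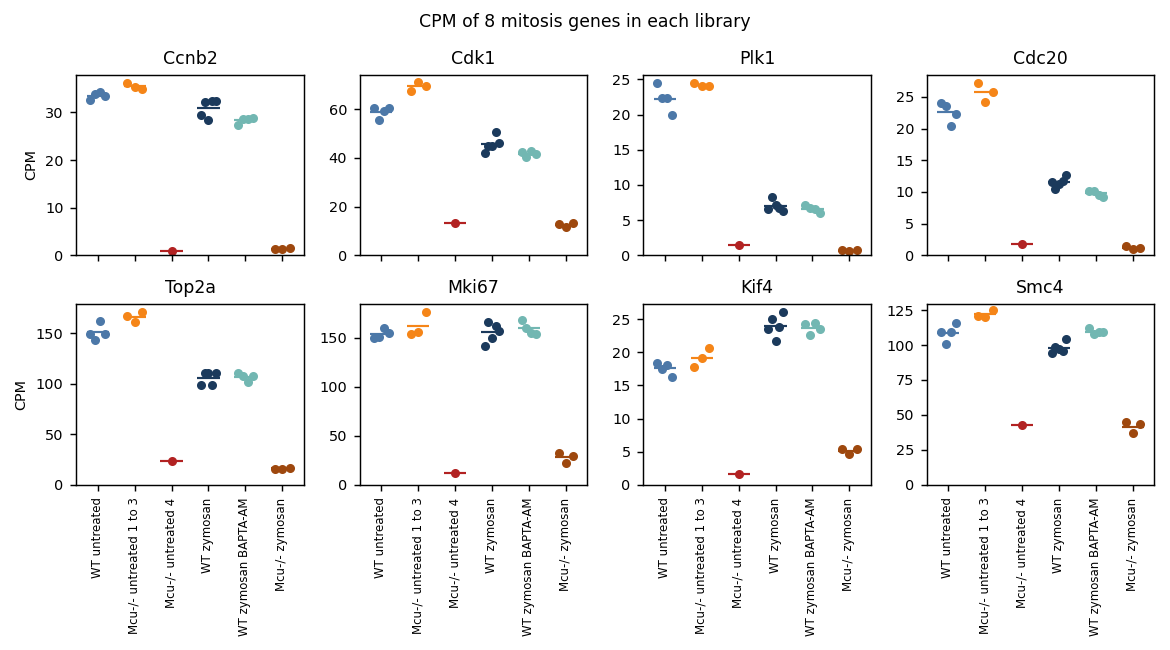
CPM of 8 mitosis genes (linear axes from 0), with 1 point per library and a line at the group mean, by group with untreated Mcu-/- library 4 apart. Ccnb2 is at 0.952 CPM in library 4 and 1.3 to 1.59 in Mcu-/- with zymosan but 27.3 or more elsewhere, whereas Plk1 also falls with zymosan in WT (24.5 at most to 8.32 at most), and Kif4 rises there.

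The same genes were low in the untreated Mcu-/- library 4. It was below all 16 libraries outside Mcu-/- with zymosan for 49 of the 50 genes, Kif20b being the exception (4.6 CPM against a lowest of 4.16), whereas library 4 was below all 16 for 21.7% of all genes tested and above all 16 for 26.5%. The 3 Mcu-/- zymosan libraries were below all 16 for 50 of 50, and for 17.7% of all genes tested. Library 4 and the 3 Mcu-/- zymosan libraries were together below the other 16 for 11.7% of all genes tested.

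On the scale of log2(CPM + 0.5), the median difference of library 4 from the mean of Mcu-/- untreated 1 to 3 was −3.04, from −4.63 to −1.49, against 0.04 over all genes tested. Ccnb2 was at 36.2, 35.3 and 35.0 CPM in libraries 1 to 3 and at 0.952 CPM (24 counts) in library 4. Cdk1 was at 67.7, 71.3 and 69.5 CPM and at 13.1 CPM, within the range of Mcu-/- with zymosan. Mki67, at 11.5 CPM, and Kif4, at 1.63 CPM, were lower in library 4 than in every Mcu-/- library with zymosan.

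Of the 50 genes, library 4 was above the range of the 3 Mcu-/- zymosan libraries for 35, within it for 8 and below it for 7, whereas over all genes tested it was above that range for 45.2% and below it for 40.1%. The mean of Mcu-/- with zymosan minus library 4 had a median of −0.50 and was below 0 for 41 genes. Zymosan minus untreated in WT had a median of −0.56 and was below 0 for 46. The added 0.5 CPM draws differences toward 0 most where levels are low, as in library 4 and Mcu-/- with zymosan. The sizes of these 2 medians are therefore not directly comparable. Over all genes tested these differences had medians of −0.03 and −0.04 and were below 0 for 52.5% and 53%. These values come from 1 library on the untreated side and have no test. Across the 50 genes the 2 differences, which share no library, had a Pearson r of 0.643 and a Spearman rho of 0.655, with Kif20b near the low end (−2.05 in Mcu-/- and −1.78 in WT) and Kif4 at the high end (1.40 and 0.44) of both. The difference of library 4 from libraries 1 to 3 and that of Mcu-/- from WT with zymosan, again without a shared library, had an r of 0.807 and a rho of 0.801. Genes are not independent replicates, and these are descriptions of the libraries. The correlations over all genes tested are not given here. The added 0.5 CPM also limits how far a gene at a low level can fall, in both differences of each pair.

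**Figure D4:**
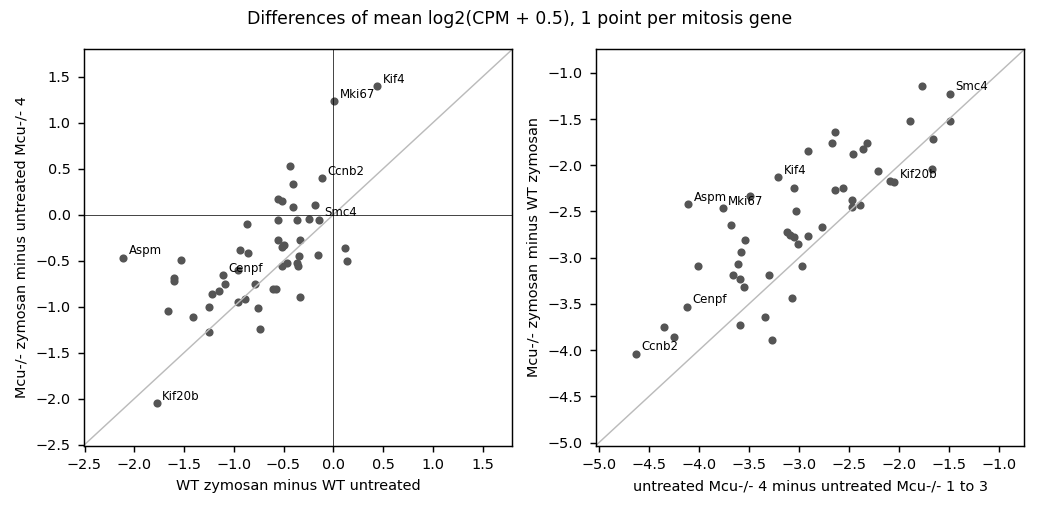
Differences of mean log2(CPM + 0.5) for the 50 genes, 1 point per gene, with the line of equality in grey and 7 genes named. On the left, zymosan minus untreated in WT against Mcu-/- with zymosan minus library 4 (r = 0.643); on the right, library 4 minus Mcu-/- untreated 1 to 3 against Mcu-/- minus WT with zymosan (r = 0.807).

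Because an untreated Mcu-/- library also had low mitosis transcripts (249 CPM in sum against 199 to 219 CPM in Mcu-/- with zymosan), the difference between genotypes under zymosan and whatever set these 4 libraries apart from the other 16 cannot be told apart. Over all genes tested, the mean correlation of library 4 was 0.946 with Mcu-/- untreated 1 to 3 and 0.925 with Mcu-/- with zymosan. Of the macrophage markers (9 genes, 8 tested), 5 were higher and 3 lower under zymosan in Mcu-/- relative to WT, with a median of 0.34. Over all genes tested, 36.4% were higher and 33.7% lower. Cd68 was at 971 CPM in library 4 and 1160 CPM in the mean of Mcu-/- with zymosan against group means of 223 to 309 CPM elsewhere, and Marco at 357 and 581 CPM against 1420 to 2260 CPM. Cd14, by contrast, was at 198 CPM in library 4, near the untreated groups (219 and 239 CPM), and at 1390 CPM in Mcu-/- with zymosan. The summed level of the list, most of it from Lyz2 and Adgre1, was 8670 CPM in library 4, 10700 to 11100 CPM in Mcu-/- with zymosan and 14100 to 17800 CPM elsewhere. Their part in the result was not tested.

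Among markers of other cells, the fibroblast list (4 genes, 2 tested) summed to 25.3 CPM in library 4 and 40.5 to 49.3 CPM in Mcu-/- with zymosan against 0.621 to 5.0 CPM elsewhere, through Col1a1 and Col1a2, while Pdgfra and Dcn stayed under 0.3 CPM in every group mean. Neutrophil and granulocyte progenitor markers (9 genes, 3 tested) summed to 0.159 CPM in library 4, 0.547 to 0.765 CPM in Mcu-/- with zymosan and 2.4 to 5.75 CPM elsewhere. The myeloid progenitor list (4 genes, 2 tested) summed to 3.29, 2.88 to 3.5, and 1.04 to 2.3 CPM, respectively, and its tested genes went opposite ways. Cd34 was at 3.17 CPM in library 4 and 2.91 CPM in the mean of Mcu-/- with zymosan against group means of at most 1.09 CPM elsewhere, and Myb at 0 and 0.0573 CPM against 0.512 to 1.07 CPM. Whether these bear on the mitosis genes was not tested. The B cell list was at 1.22 to 3.15 CPM in every library with 0 of 4 genes called between Mcu-/- and WT with zymosan, and the T cell, erythroid and mast cell lists were at most 0.657 CPM with no gene passing the filter.

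Without zymosan, Mcu-/- libraries 1 to 3 differed little from WT. Of the 50 genes, 4 were called higher and 0 lower, against 1.52% higher and 1.8% lower over all genes tested. The median log2 fold change was 0.14, against 0.00 over all genes, and 48 of the 50 were above 0. The 4 were Cdk1 (0.24, SE 0.046, edgeR adjusted p = 0.00107), Smc4 (0.17, adjusted p = 0.0176), Smc2 (0.17, adjusted p = 0.0101) and Top2a (0.14, adjusted p = 0.0414).

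Cdk1 was at 67.7, 71.3 and 69.5 CPM in Mcu-/- and at 60.4, 55.7, 59.3 and 60.6 CPM in WT, and these did not overlap. Smc2 was at 72.9, 76.3 and 75 CPM against 65.9 to 67.1 CPM, and Top2a, at 161 to 171 against 143 to 162 CPM, did overlap. At the other end were Cdc25c (−0.19, SE 0.15) and Cks2 (−0.05, SE 0.095), neither called. With library 4 kept in its labelled group, where the spread over all genes is larger, 0 genes were called in either direction. The fitted values of Cdk1 (−0.09), Top2a (−0.20), Smc2 (−0.09) and Smc4 (−0.09) were then below 0. Without WT replicate 2, or without any 1 of Mcu-/- replicates 1 to 3, 2 genes were called.

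BAPTA-AM left the set near its level in unloaded WT macrophages with zymosan. Of the 50 genes, 8 were higher and 6 lower, against 15.3% higher and 16.5% lower among all genes tested, and the median log2 fold change was 0.01, from −0.41 to 0.33. Those higher were Nuf2 (0.33, SE 0.074, edgeR adjusted p = 0.000543), Kif11 (0.28), Mybl2 (0.25), Cenpf (0.24), Bub1 (0.22), Ccnb1 (0.20), Smc4 (0.16) and Smc2 (0.14). Those lower were Ckap2l (−0.41, SE 0.072, adjusted p = 1.88e-05), Aurka (−0.36), Cdc20 (−0.23), Cenpa (−0.22), Cdk1 (−0.13) and Ccnb2 (−0.13).

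Ckap2l was at 18.3, 16.5, 15.6 and 17.8 CPM with BAPTA-AM and at 20.4 to 24.1 CPM without it, with no overlap. Nuf2, of the NDC80 complex that holds kinetochores to microtubules, was at 21, 21.1, 18.6 and 17.7 CPM against 14.2 to 16.4 CPM, also without overlap. Its partner Ndc80 had a log2 fold change of −0.03 (SE 0.091) and was not called. With library 4 kept in its labelled group, where the spread over all genes is larger, 0 genes were called in this comparison. With library totals 12 were higher and 2 lower, and without BAPTA-AM replicate 4, 7 were higher and 3 lower. The shares of all genes called under these settings are not given here.

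Within Mcu-/- macrophages, zymosan against untreated libraries 1 to 3 gave 50 genes lower and 0 higher, 47 of them by more than 4-fold (42.3% lower and 39.1% higher over all genes tested), with a median of −3.99. Aspm, at 1 to 6 counts per library with zymosan, had the largest value, −6.18 (SE 0.23), and Smc4 the smallest, −1.55 (SE 0.053). Against library 4 instead, the median difference of mean log2(CPM + 0.5) was the −0.50 given above, which is not on the scale of the fitted −3.99. The difference of the zymosan responses, Mcu-/- (from libraries 1 to 3) minus WT, was below 0 and called for all 50 genes (29.3% lower and 30.9% higher over all genes tested), with a median of −3.15, and for 49 with library 4 in its labelled group. It shares its libraries with the comparisons above, so its values are not further evidence.

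**Figure D5:**
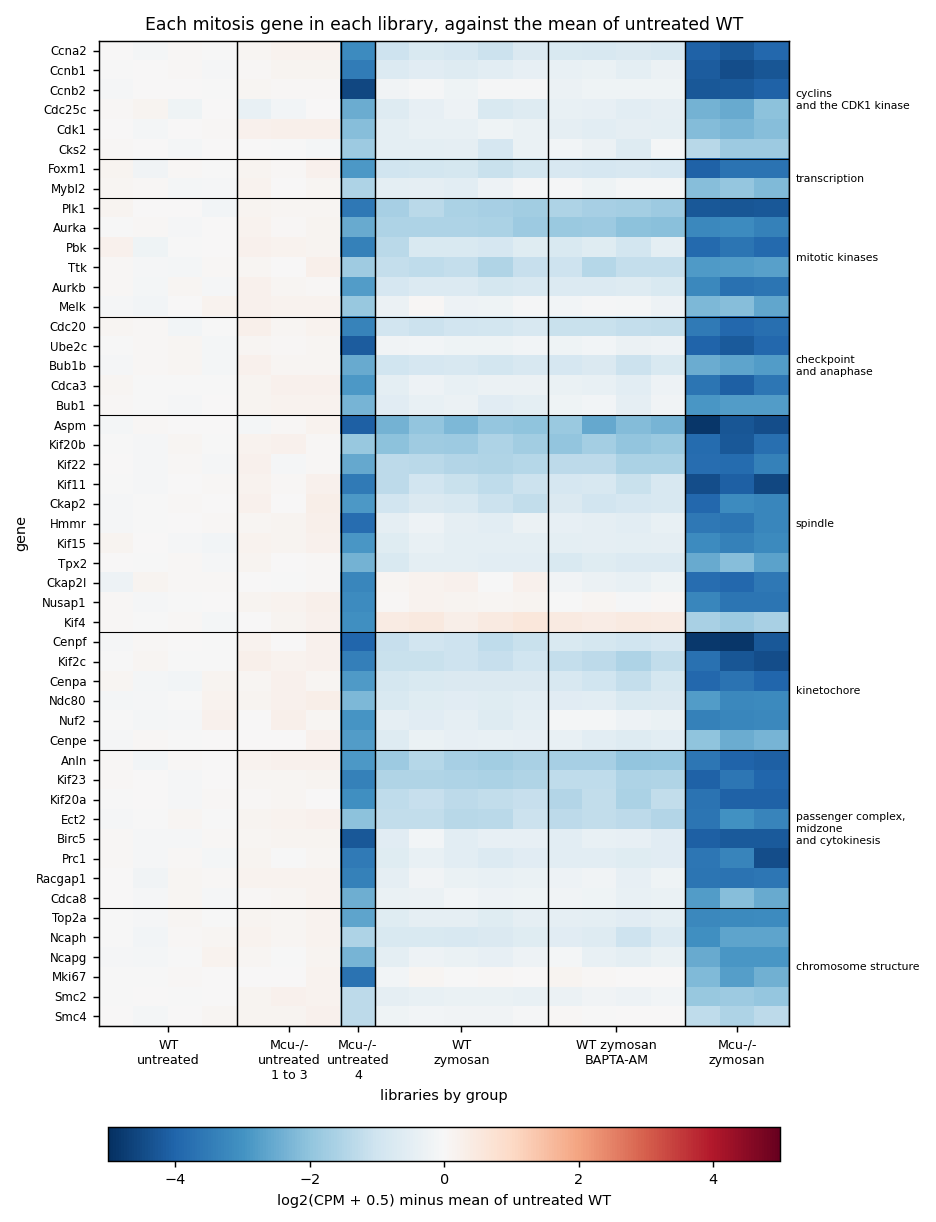
Colour map of log2(CPM + 0.5) of each of the 50 genes (rows, by role) in each of the 20 libraries (columns, by group) minus the mean of untreated WT, from blue (lower) to red (higher). Library 4 and the 3 Mcu-/- zymosan libraries are blue for every gene, WT libraries with zymosan are paler and gene-dependent, and Kif4 is the most red of the rows there.

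Other mitosis genes from lists of related functions followed in part. Under zymosan in Mcu-/- relative to WT, 33.7% of all genes tested were lower and 36.4% higher. Of 33 further spindle, midzone, cytokinesis and condensin genes, 32 were lower and 0 higher under zymosan in Mcu-/- relative to WT (median −1.87). They were led by Troap (−5.77, SE 0.43), Knstrn (−3.90) and Kif18b (−3.77). This list summed to 1600 CPM in the untreated library 4, 1390 to 1460 CPM in Mcu-/- with zymosan and 2590 to 3000 CPM elsewhere. Of 33 spindle checkpoint and kinetochore genes, 27 were lower and 1, Mis12, higher (median −1.58), led by Ska1 (−4.23), Knl1 (−3.23) and Nsl1 (−2.61). Their sum was 276 CPM in library 4, 220 to 225 CPM in Mcu-/- with zymosan and 350 to 540 CPM elsewhere. Of 18 entry kinases, phosphatases and partners, 11 were lower and 5 higher (median −0.82), led by Nek2 (−3.38), Pkmyt1 (−2.55) and Ccnf (−2.23). Nek2 was low in Mcu-/- with zymosan (0.353 to 1.02 CPM). It was at 0.952 CPM in library 4 and 16.5 CPM in the mean of Mcu-/- untreated 1 to 3. The sum was 716 CPM in library 4 and 759 to 809 CPM in all other libraries. For these lists too, the genotype difference and what set library 4 apart cannot be told apart.

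Of 31 genes of the anaphase-promoting complex, securin, separase and cohesin, 14 were lower and 9 higher, with a median of 0.00, led by the cohesin protector Sgo1 (−3.75), Esco2 (−2.45) and Fbxo5 (−2.42), the last an inhibitor of the complex. The list summed to 1530 CPM in library 4, 1550 to 1570 CPM in Mcu-/- with zymosan and 1600 to 1640 CPM elsewhere. Over all genes tested, the shares in Mcu-/- relative to WT with zymosan were 33.7% lower and 36.4% higher. With zymosan in WT, the numbers lower and higher were 26 and 5, 22 and 0, 11 and 5, and 17 and 10 in these 4 lists, in the same order. The shares over all genes tested were 41.2% and 37.1%. With BAPTA-AM the numbers lower and higher were 4 and 5, 3 and 3, 1 and 5, and 2 and 4. There the shares were 16.5% and 15.3%. In untreated Mcu-/- libraries 1 to 3, 3 genes of the 4 lists were called, all higher: Kntc1, Cep55 and Tuba1b. Over all genes tested, 1.52% were called higher and 1.8% lower there.

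DNA replication and G1/S genes act before mitosis. Of 46, 32 were lower and 6 higher under zymosan in Mcu-/- relative to WT (33.7% and 36.4% over all genes tested). The median of the 46 was −0.63, and the list was led by Rrm2 (−2.91, SE 0.11), Tk1 (−2.83) and Mcm10 (−2.02). Their summed level was 1500 CPM in library 4 and 1710 to 1770 CPM in Mcu-/- with zymosan, within the 1450 to 1810 CPM of the other libraries. This sum includes Pcna, the replication clamp, which was at 526 CPM in library 4, 999 CPM in the mean of Mcu-/- with zymosan, 745 CPM in WT with zymosan and 212 CPM in WT untreated. With zymosan in WT, 37 were lower and 4 higher (median −0.68), led by Cdc6 (−2.35), against 41.2% and 37.1% over all genes tested. In untreated Mcu-/- libraries 1 to 3, 15 were higher and 0 lower (1.52% and 1.8% over all genes tested), among them Uhrf1 (0.29) and Gmnn (0.28). With BAPTA-AM 12 were higher and 1 lower (15.3% and 16.5% over all genes tested), led by Gmnn (0.44).

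The regulators of this program changed unevenly. Of 19 MuvB, RB-family and E2F genes, 8 were lower and 2 higher under zymosan in Mcu-/- relative to WT (median −0.07). Over all genes tested, 33.7% were lower and 36.4% higher. The list was led by the repressor E2Fs E2f7 (−3.13, SE 0.44) and E2f8 (−0.97, SE 0.17) with E2f2 (−1.07, SE 0.29). These genes were at low levels. E2f7 had a mean of 0.158 CPM in Mcu-/- with zymosan (0 to 0.298 CPM) and 1.49 CPM in WT with zymosan, and E2f2 had 0.627 and 1.32 CPM. In the untreated library 4, E2f7 was at 0.555, E2f8 at 3.57 and E2f2 at 7.02 CPM. Their means in Mcu-/- untreated 1 to 3 were 4.97, 16.5 and 15.7 CPM. With zymosan in WT, 12 of the 19 were lower and 3 higher, led by E2f2 (−3.49), against 41.2% and 37.1% over all genes tested.

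Of 16 CDK inhibitor and arrest genes, 7 were higher and 5 lower under zymosan in Mcu-/- relative to WT (median 0.19), shares near those over all genes tested (36.4% and 33.7%). Cdkn1a, which encodes p21, was at 1660 CPM in the mean of Mcu-/- with zymosan, 891 CPM in WT with zymosan, 634 CPM in library 4, 234 CPM in WT untreated and 236 CPM in Mcu-/- untreated 1 to 3. Cdkn2b (p15) was the largest, at 2.26 (SE 0.20), followed by Cdkn2d (−1.96) and Cdkn2c (−1.80). The list was led in WT by Gadd45b (4.11), Ccng2 (2.98) and Cdkn1a (1.93), with 8 genes higher and 3 lower (37.1% and 41.2% over all genes tested). With BAPTA-AM 9 were lower and 1 higher (16.5% and 15.3% over all genes tested), led by Gadd45a (−0.69).

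Of 8 G1 cyclins and kinases, 3 were higher and 5 lower under zymosan in Mcu-/- relative to WT (36.4% and 33.7% over all genes tested). Ccnd1 (cyclin D1) led, at 607 CPM against 77.6 CPM (log2 fold change 2.97, SE 0.045, edgeR adjusted p = 3.16e-37), and it was at 936 CPM in library 4 and 422 CPM in WT untreated. Ccne1 (cyclin E1) was lower by 1.60 and Ccnd3 by 0.97. In WT, zymosan lowered Ccnd1 by 2.44 and raised Ccnd2 by 1.98 and Cdk6 by 1.37.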

How the data were processed

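RNA was sequenced from 20 BMDM libraries in 5 labelled groups. The authors aligned reads to the mm10 mouse build with STAR, counted them per gene with HTSeq and deposited 1 table of raw counts per gene, with no normalization. Columns of Mcu-/- with zymosan were matched to their group, not to single samples, because their numbers differ from those in the labels. Genes were filtered by filterByExpr, scaled by TMM and tested with edgeR 4.0.16 quasi-likelihood F-tests (R 4.3.3, limma 3.58.1), all 20 libraries in 1 fit, with untreated Mcu-/- library 4 as its own coefficient. P-values are two-sided, with Benjamini-Hochberg adjustment over the 11707 genes tested (threshold 0.05). Gene symbols were taken from the table. The script was tested on simulated data.

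The 50 genes, the 16 other lists and the tests were chosen with earlier results of these data known. Named genes were representatives of each role, the 3 largest and 3 smallest changes per comparison and members that departed from the common direction, and, from other lists, the 3 largest called changes. A few others were named after their values were seen. Replicate numbers did not pair the samples. Alternatives were DESeq2 1.42.0 (Wald test, and its size factors in edgeR), no filter beyond 1 count, library 4 in its group, only the groups compared, a replicate block, library totals (added after seeing the data) and each library left out. The total count per library limits precision at low counts.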

Additional observations from a re-analysis of the deposited data

Results flagged for a closer look

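Untreated Mcu-/- library 4 lay far below the other 3 libraries of its group, by more than Dixon's 95% limit for a group of 4, in the summed level of the 50 genes (249 CPM) and in 31 of the 34 genes tested in this way, against 27% of all genes tested, in either direction. Its levels in CPM were Ccnb1 3.21, Ccnb2 0.952, Ccna2 4.92, Cdk1 13.1, Cks2 4.13, Foxm1 2.5, Mybl2 2.62, Plk1 1.43, Aurka 3.61, Aurkb 3.21, Bub1 3.93, Cdc20 1.75, Ube2c 2.14, Kif11 2.54 and Kif20b 4.6. They were Tpx2 8.97, Nusap1 2.18, Kif4 1.63, Ckap2l 1.71, Cenpe 5.79, Cenpf 1.15, Ndc80 2.34, Kif2c 1.03, Birc5 0.992, Prc1 2.62, Anln 3.97, Top2a 23.9, Ncapg 2.94, Smc2 26.3, Smc4 43.1 and Mki67 11.5. These genes are not independent, since they come from 1 library.

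The same limit was passed by single libraries of other groups. With BAPTA-AM, Ccnb2 was at 27.3 CPM in replicate 1, Smc4 at 112 CPM in replicate 1 and Kif11 at 15.5 CPM in replicate 3. In WT with zymosan, Aurka was at 6.26 CPM in replicate 5, and in replicate 1 Tpx2 was at 28.8 CPM and Cenpe at 27.5 CPM. In WT untreated, Kif2c was at 16.7 CPM in replicate 2. Chance alone passes this limit in about 1 of 20 groups.

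By edgeR's test of the difference of zymosan responses (Mcu-/- from libraries 1 to 3, minus WT), all 34 genes were called lower. Over all genes tested, 29.3% were called lower and 30.9% higher. The 34 genes were named in part for the size of their changes, and this comparison shares its libraries with those above. The log2 differences were Ccnb2 −4.52, Cenpf −4.45, Ckap2l −4.4, Birc5 −4.39, Kif2c −4.28, Ube2c −4.2, Nusap1 −4.19, Ccnb1 −4.18, Aspm −3.93, Kif11 −3.78, Ccna2 −3.57 and Prc1 −3.53. In the middle of the range they were Foxm1 −3.46, Plk1 −3.44, Cdc20 −3.42, Aurkb −3.19, Nuf2 −3.19, Ndc80 −3.12, Kif20b −2.91, Top2a −2.85, Anln −2.76, Bub1 −2.75 and Ncapg −2.75. The smallest were Cdc25c −2.56, Mki67 −2.55, Kif4 −2.35, Cdk1 −2.1, Mybl2 −2.1, Tpx2 −2.01, Cenpe −2.01, Aurka −1.99, Smc2 −1.72, Smc4 −1.4 and Cks2 −1.19. Because library 4 was untreated and yet low in these genes, this difference and what set library 4 apart cannot be told apart.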

How the results depend on the processing

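The comparison of Mcu-/- with WT under zymosan kept all 50 genes lower under every alternative run, and so did zymosan against untreated 1 to 3 in Mcu-/-. The other counts moved, and the causes were not tested. The shares of all genes called under these alternatives are not given here, so the counts do not compare the 50 genes with the rest. The spread common to all genes (biological coefficient of variation) was 12.4% with library 4 in its labelled group, against 3.56% in the main fit. With library 4 kept in its labelled group, the genes called numbered 0 higher and 20 lower for zymosan in WT, 0 and 0 for BAPTA-AM, and 0 higher for untreated Mcu-/- against WT. Cdk1 (−0.089), Top2a (−0.20), Smc2 (−0.086) and Smc4 (−0.085) then changed sign in the last. With library totals, 0 were higher for zymosan in WT, where Nusap1 (−0.37), Kif4 (−0.042), Ckap2l (−0.36) and Mki67 (−0.48) changed sign, and 2 were lower with BAPTA-AM. With a minimum of 1 count in any library, 1 was higher for zymosan in WT and 7 for untreated Mcu-/-, and 7 for the latter with only the groups compared. Leaving out each library in turn gave 1 to 3 genes higher for zymosan in WT (1 without untreated replicate 3 or zymosan replicates 2, 3 or 5), 3 to 7 lower with BAPTA-AM, and 2 to 5 higher in untreated Mcu-/-. The replicate numbers did not pair the samples (correlation of deviations −0.055 to 0.059). The replicate block gave 1 gene higher for zymosan in WT, and 10 higher and 4 lower with BAPTA-AM, against 8 and 8 for the same libraries without the block. Depth limits the lowest genes, such as Aspm in Mcu-/- with zymosan.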
